A study of Rapana venosa with 9 samples.

Results

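miR-31-x, miR-72-x and miR-375-y were followed from larva to juvenile in Rapana venosa, the veined rapa whelk, a marine gastropod. These 3 rows, of 918 miRNA references in the count table (763 known and 155 predicted), were chosen by their names and by measured values, namely a lower level in postlarvae under 2 ways of scaling the libraries. Their fall in postlarvae is therefore given as a description without a test. The 3 rows carry only 2 distinct sequences, since miR-31-x and miR-72-x have the same reference. No other arm of miR-31, miR-72 or miR-375 was in the table. On TMM-scaled counts, postlarvae held 2.34-fold less miR-31-x, 2.36-fold less miR-72-x and 2.71-fold less miR-375-y than competent larvae.

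A miRNA is a short RNA that guides an Argonaute protein to messenger RNAs, mainly through its seed, the bases 2 to 8 from the 5′ end. The miR-31 family is known from mammals for its part in epithelia, in the skin and gut, and the nematode Caenorhabditis elegans has members of the same seed family under other names, miR-72 among them. miR-375 is known in mammals as an abundant miRNA of the endocrine pancreas, where it restrains insulin secretion, and it is also found in gut epithelium. These roles come from other species, and nothing in the count table gives the cell type of a read.

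The reference sequences of the 3 rows are shown because they decide how far the rows are separate measurements. They are the sequences deposited in the count table, 5′ to 3′, with the seed in capitals.
miR-31-x: aGGCAAGAuguuggcauagcuga
miR-72-x: aGGCAAGAuguuggcauagcuga
miR-375-y: uUUGUUCGuucggcucgcguu
The first and second are identical over all 23 nt, with a GC content of 47.8%. The miR-375-y reference has 21 nt and a GC content of 52.4%. Beyond this pair, 0 of the 918 references had the seed GGCAAGA or UUGUUCG at bases 2 to 8 besides the member itself, and 0 were contained in a member's sequence or lay within 2 mismatches of it. The nearest other references differed at 6 positions, miR-4628-y from miR-31-x and miR-668-y from miR-375-y. The letters UUGUUCG also occurred elsewhere in miR-278-y, outside its seed.

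Small RNA had been sequenced from 9 libraries, 3 each from precompetent larvae with 3 spiral whorls (Pre-CL), competent larvae with 4 spiral whorls (CL) and postlarvae, the juveniles after settlement (PL). All were cultured offspring of wild parents, and no treatment was named for any stage. The study describes each replicate as 40 to 100 individuals but also names an individual intestine as the source of the RNA, which leaves the tissue behind the counts unresolved. Nothing states that the replicates of a stage came from separate cultures, so p-values measure only the spread between these libraries. The libraries had 8235539 to 10694742 clean reads and 3762511 to 6781384 miRNA counts. Reads of rRNA made up 6.73 to 9.26% of the clean reads in PL, against 3.20 to 3.87% in CL and 4.87 to 5.42% in Pre-CL. Reads of tRNA made up 0.770 to 0.963% in PL and at most 0.175% in any larval library. Reads under 18 nt were 9.0 to 19.0% of the high-quality reads in PL and 5.46 to 6.26% in CL. Pre-CL 3 stood apart from the other Pre-CL libraries, with 14.5% of such reads against 4.29% in Pre-CL 1 and 4.30% in Pre-CL 2.

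miR-31-x was counted at a moderate level in every library. It had 12971, 16765 and 7020 counts in Pre-CL 1, 2 and 3, 13635, 13230 and 8464 counts in CL 1, 2 and 3, and 3630, 6790 and 7022 counts in PL 1, 2 and 3. Since the libraries differ in depth and composition, counts were scaled with TMM, which sets library sizes so that most miRNAs do not differ, and are given as TMM CPM, counts over a common library size of 1e6. On that scale miR-31-x stood at 2426, 2695 and 1624 TMM CPM in Pre-CL, at 2016, 2502 and 1909 TMM CPM in CL, and at 726.5, 902.5 and 1112 TMM CPM in PL. The highest PL library was below the lowest larval library, which was Pre-CL 3. The mean was 913.5 ± 193 TMM CPM in PL, against 2142 ± 316 TMM CPM in CL and 2248 ± 557 TMM CPM in Pre-CL (SD, n = 3 each).

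The share of miR-31-x among all miRNA counts was small throughout, 0.0965 to 0.135% in PL against 0.165 to 0.201% in CL and 0.119 to 0.271% in Pre-CL. Counting error was narrow beside the spread between libraries. In PL 1, the library with the lowest count, the 95% Wilson interval of the share was 0.0934 to 0.0997%, for counting error only. By rank of counts, miR-31-x was between 39 and 42 in PL and between 28 and 31 in the larvae.

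miR-72-x nearly repeated the values of miR-31-x. It had 12929, 16645 and 6978 counts in Pre-CL 1, 2 and 3, 13518, 13112 and 8419 counts in CL 1, 2 and 3, and 3606, 6675 and 6921 counts in PL 1, 2 and 3. Its mean was 901.5 ± 187 TMM CPM in PL, against 2126 ± 311 TMM CPM in CL and 2236 ± 554 TMM CPM in Pre-CL (SD, n = 3 each). Within a library the row fell short of miR-31-x by 24 to 120 counts, that is by 0.324 to 1.69%, although the references are the same letter for letter. Over the 9 libraries the totals were 88803 counts for miR-72-x and 89527 for miR-31-x. Such pairs occurred elsewhere in the table, where 20 sequences were each carried by more than 1 row, 40 rows in all. Of these sequences 3 had at least 1000 counts, and the totals of their rows differed by 0.501 to 7.49%. Of the 17 with fewer counts, 10 had equal totals in both rows. The source of the gap was not tested. With the same reference, the rows miR-31-x and miR-72-x are not independent evidence of each other.

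miR-375-y was the most abundant of the 3 in every library. It had 74949, 60019 and 88995 counts in Pre-CL 1, 2 and 3, 76182, 98481 and 65111 counts in CL 1, 2 and 3, and 28138, 32006 and 41421 counts in PL 1, 2 and 3. Scaled by TMM, it stood at 14018, 9647 and 20583 TMM CPM in Pre-CL, at 11263, 18624 and 14684 TMM CPM in CL, and at 5632, 4254 and 6557 TMM CPM in PL. Every PL library was below every larval library, and the lowest larval value was that of Pre-CL 2. The mean was 5481 ± 1159 TMM CPM in PL, against 14857 ± 3684 TMM CPM in CL and 14749 ± 5505 TMM CPM in Pre-CL (SD, n = 3 each). It took 0.636 to 0.752% of the miRNA counts in PL, against 1.12 to 1.47% in CL and 0.969 to 1.51% in Pre-CL, and its rank was 24 in every PL library and between 15 and 22 in the larvae.

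**Figure D1:**
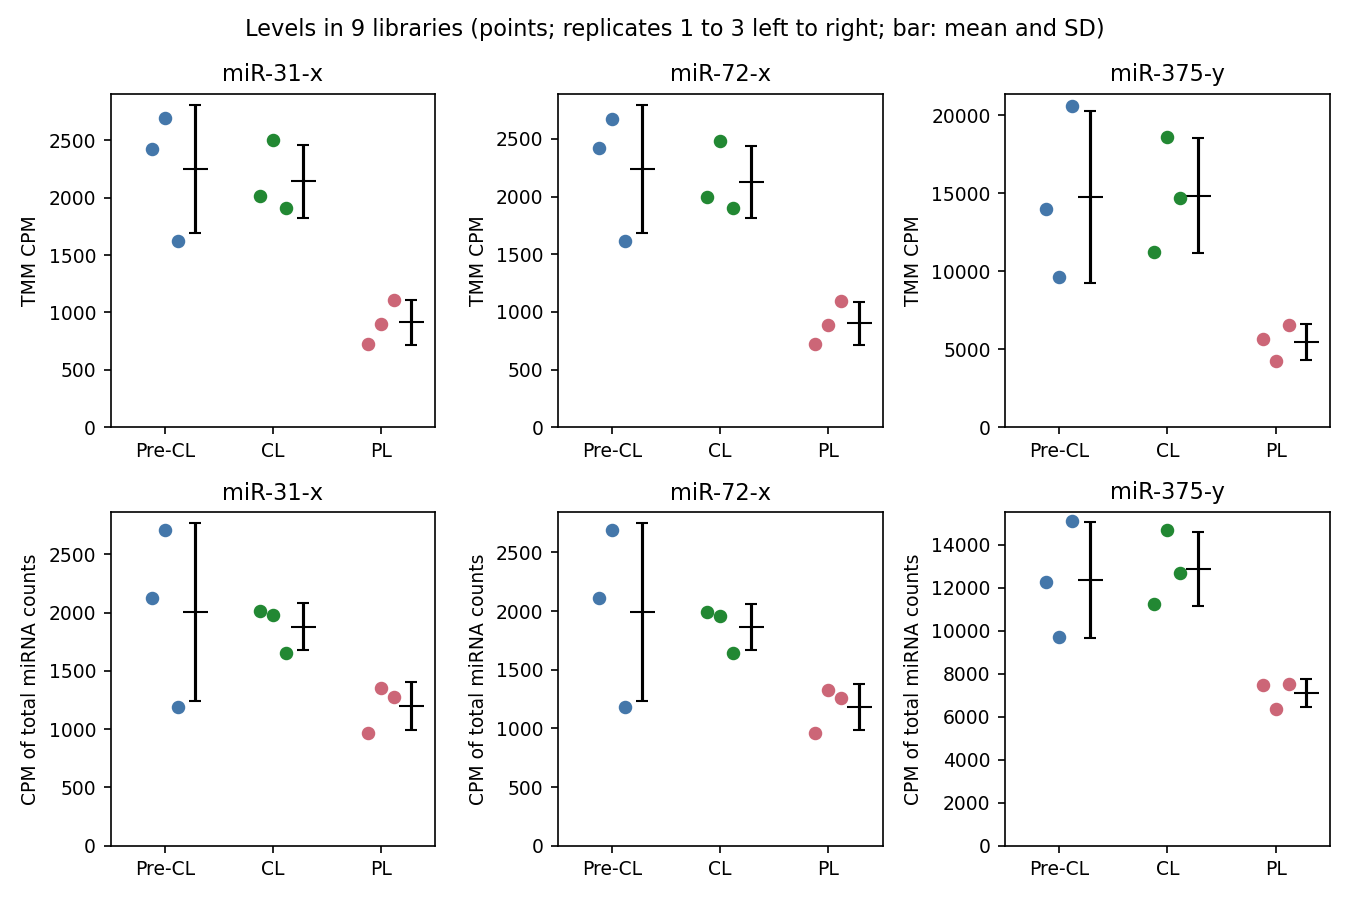
Level of each of the 3 miRNAs (y axis, TMM CPM in the upper row and CPM of total miRNA counts in the lower row) in the 3 libraries of each stage (points), with the mean and SD beside them. All 3 PL points lie below all 6 larval points in every upper panel. In the lower panels of miR-31-x and miR-72-x, Pre-CL 3 lies among the PL points.

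The size of the fall depended on how the libraries were scaled. With TMM, the log2 fold change of miR-31-x was -1.23 ± 0.254 (SE) in PL against CL and -1.30 ± 0.254 in PL against Pre-CL. Scaled by the total miRNA counts of each library, it was -0.65 ± 0.296 and -0.75 ± 0.297, or 1.57- and 1.68-fold lower. On that scale miR-31-x stood at 964.8, 1350 and 1275 CPM in PL, against 2011, 1975 and 1650 CPM in CL and 2122, 2708 and 1191 CPM in Pre-CL. PL was still below CL in every library, but PL 2 and PL 3 were above Pre-CL 3, so PL and Pre-CL overlapped. Without Pre-CL 3 there was no overlap. Per clean read, where miRNA and other RNA both count, miR-31-x was 1.92-fold lower in PL than in CL and 2.17-fold lower than in Pre-CL, without overlap. miR-72-x followed miR-31-x on each scale, at log2 fold changes of -1.24 and -1.31 with TMM and -0.66 and -0.76 with total counts, in PL against CL and against Pre-CL.

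miR-375-y kept its PL and larval libraries apart on all 3 scales. With TMM its log2 fold change was -1.44 ± 0.314 (SE) in PL against CL and -1.43 ± 0.314 in PL against Pre-CL. With total miRNA counts it was -0.85 ± 0.191 and -0.79 ± 0.191, or 1.81- and 1.73-fold lower. On that scale miR-375-y stood at 7478, 6366 and 7522 CPM in PL, against 11234, 14703 and 12692 CPM in CL and 12262, 9694 and 15094 CPM in Pre-CL. Per clean read it was 2.24-fold lower in PL than in CL and 2.28-fold lower than in Pre-CL. The total-count scale thus left all 3 miRNAs lower in PL on average but under 2-fold.

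The median fold change of all miRNAs also moved between the 2 scales. Over the 214 miRNAs with enough counts to be tested, which include all 3 members, the median log2 fold change in PL against CL was 0.202 with TMM and 0.792 with total counts, a shift of 0.59. In PL against Pre-CL it was 0.0554 and 0.631, a shift of 0.576. Relative to that median, miR-31-x was at -1.43 with TMM and -1.44 with total counts in PL against CL, and miR-375-y at -1.64 and -1.65. In PL against Pre-CL, miR-31-x was at -1.35 and -1.38 and miR-375-y at -1.48 and -1.43. Taking off the median removes a shift common to most miRNAs, so the closeness of these values on the 2 scales is no added support for the fall. The TMM factors were 1.15 to 1.50 in PL, against 0.790 to 0.997 in CL and 0.733 to 1.005 in Pre-CL.

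**Figure D2:**
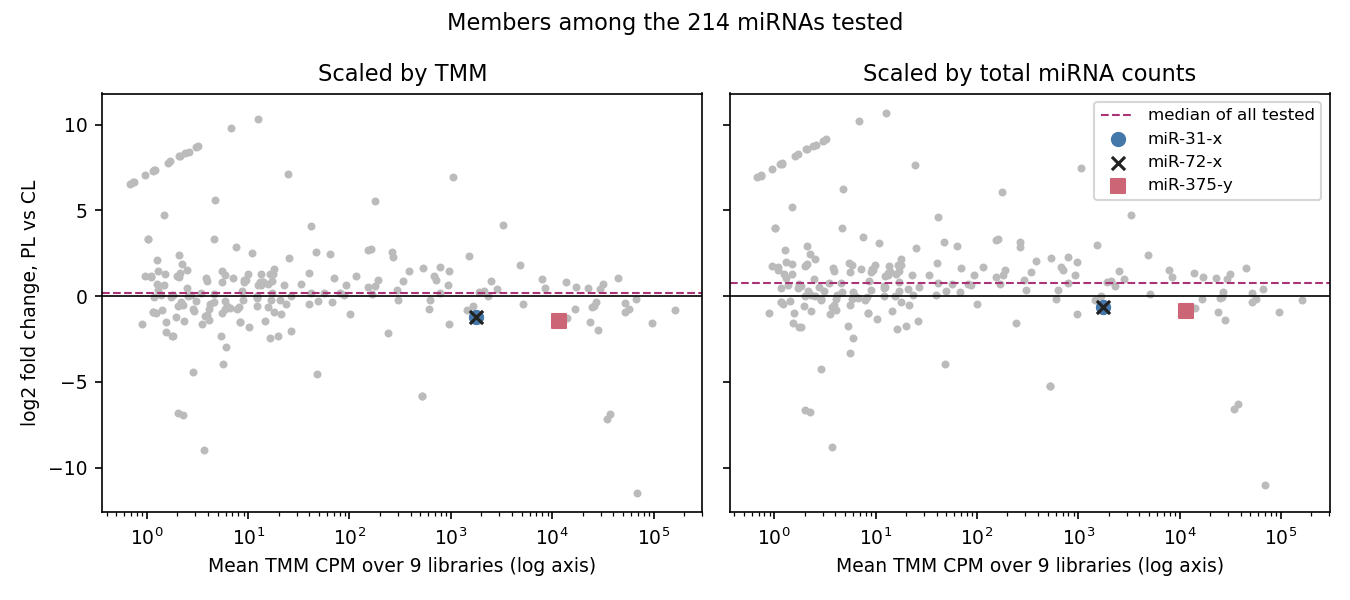
Log2 fold change in PL against CL (y axis) of the 214 miRNAs tested (grey points) against their mean TMM CPM over the 9 libraries (x axis, log scale), scaled by TMM on the left and by total miRNA counts on the right. The dashed line is the median of all, 0.202 on the left and 0.792 on the right. The 3 named miRNAs lie below 0 and below that line in both panels.

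A miRNA was called changed at an adjusted p under 0.05 by edgeR's quasi-likelihood test and a fold change over 2. In PL against CL, 48 of the 214 miRNAs tested (22.4%) were called higher and 31 (14.5%) lower, and in PL against Pre-CL 61 (28.5%) higher and 47 (22.0%) lower. All 3 members were among the lower ones in both comparisons, from which nothing is read, as the same contrasts chose them. By fold change, miR-375-y stood at place 33 and miR-31-x at place 37 of 214 from the lowest in PL against CL. Scaled by total miRNA counts, the split in PL against CL was 76 higher and 17 lower. Both PL comparisons use the same PL libraries and are not independent. In bulk RNA of either possible source, fewer cells of a type and less of a miRNA per cell cannot be told apart.

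**Figure D3:**
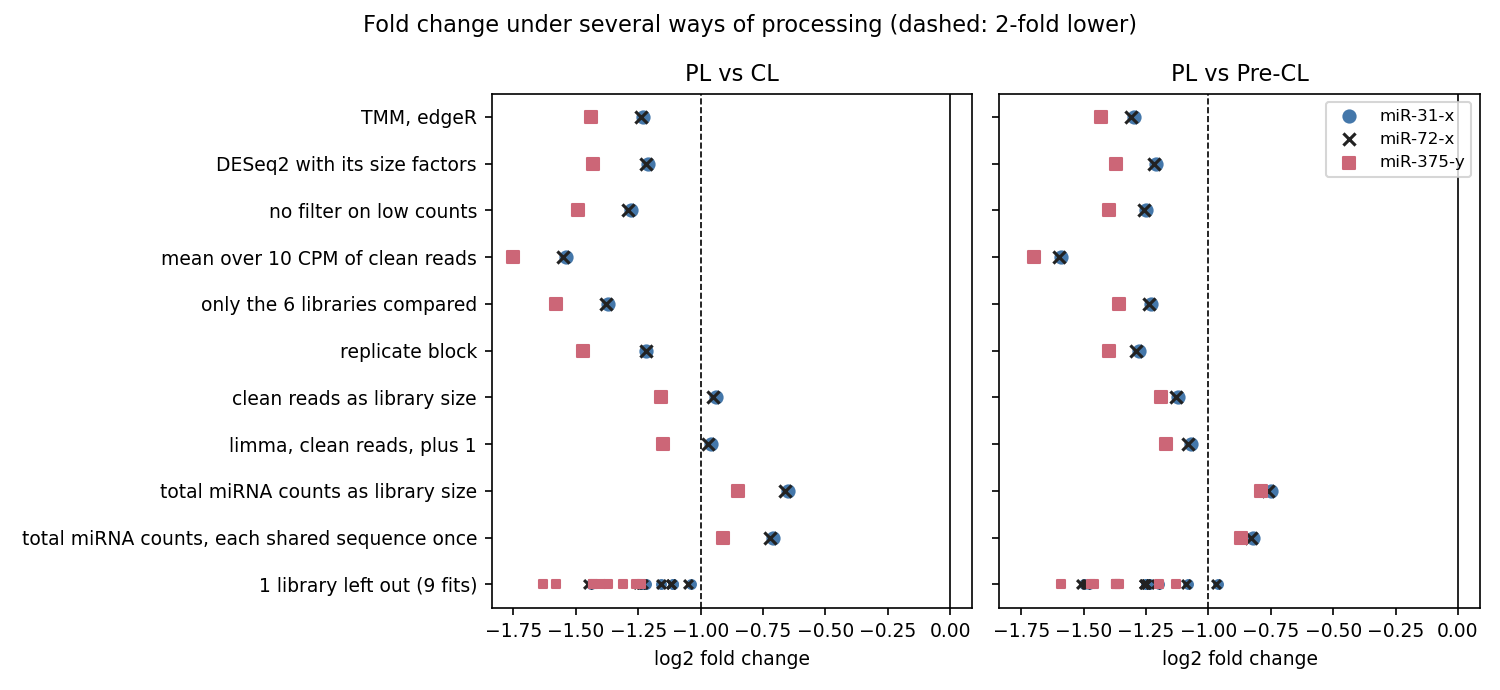
Log2 fold change (x axis) of the 3 miRNAs in PL against CL (left) and in PL against Pre-CL (right) under several ways of processing (y axis), with the 9 fits that leave out 1 library in the bottom row. Every point lies below 0, and both settings that scale by total miRNA counts lie to the right of the dashed line, which marks a 2-fold lower level.

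Single libraries mattered most in Pre-CL, where the 3 replicates were spread widest. Pre-CL 3 had the lowest miR-31-x level of the 6 larval libraries and at the same time the highest miR-375-y level, on TMM and on total-count scaling. Without Pre-CL 3, the log2 fold change in PL against Pre-CL was -1.50 for miR-31-x and -1.13 for miR-375-y. Without Pre-CL 2, which was highest in miR-31-x and lowest in miR-375-y among the larvae, it was -0.96 for miR-31-x, under 2-fold. Pre-CL 3 was also the Pre-CL library with the most reads under 18 nt, and the part of this in the result was not tested.

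Between the larval stages no difference was called for any of the 3. This comparison was not used to choose them, so its test is given. Among all 214 miRNAs, 22 (10.3%) were called higher and 20 (9.35%) lower in CL than in Pre-CL. miR-31-x had a log2 fold change of -0.07 in CL against Pre-CL (95% interval -0.64 to 0.50, edgeR adjusted p = 0.92), miR-72-x of -0.07 (-0.64 to 0.49, adjusted p = 0.91) and miR-375-y of 0.01 (-0.69 to 0.71, adjusted p = 1). The intervals reach as far as 0.71 on the log2 scale and do not show that the stages were alike. The CL and Pre-CL libraries overlapped for each of the 3 on all 3 scales. Together with the values above, the order of stages was PL lowest for each miRNA, and CL and Pre-CL did not differ beyond their spread.

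The ratio of 2 miRNAs within a library does not depend on the scaling. The count of miR-375-y over that of miR-31-x was 5.78, 3.58 and 12.7 in Pre-CL, 5.59, 7.44 and 7.69 in CL, and 7.75, 4.71 and 5.90 in PL. The 3 stages overlapped. The mean ratio was 6.12 ± 1.53 in PL, against 6.91 ± 1.15 in CL and 7.34 ± 4.75 in Pre-CL (SD, n = 3 each). Within Pre-CL the highest ratio was 3.54 times the lowest, whereas the means of the stages differed by at most 1.20 times. As the PL values chose both miRNAs, the ratios in PL are a description without a test. Between CL and Pre-CL the two-sided exact permutation p was 0.9, in a design of 3 libraries against 3 that cannot go below 0.1. The ratio was looked at only after the levels had been seen.

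The count of miR-72-x over that of miR-31-x was 0.993, 0.983 and 0.986 in PL, against 0.991, 0.991 and 0.995 in CL and 0.997, 0.993 and 0.994 in Pre-CL. The lowest values were those of PL 2 and PL 3, but PL 1 lay among the larval libraries. For PL this is a description without a test. Between CL and Pre-CL the two-sided exact permutation p was 0.3, again with 0.1 as the smallest possible.

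**Figure D4:**
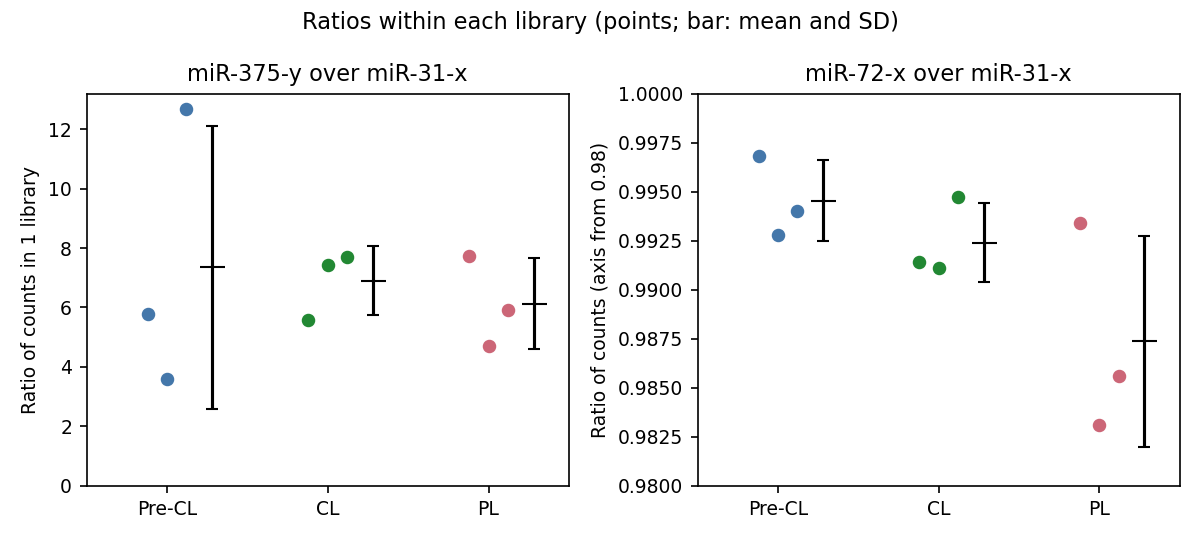
Ratio of the counts of miR-375-y to miR-31-x (left, y axis from 0) and of miR-72-x to miR-31-x (right, y axis from 0.98) in each library (points), with the mean and SD of each stage beside them. The Pre-CL ratios on the left run from 3.58 to 12.7 and enclose all others, and all ratios on the right lie just below 1.

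The miRNAs whose log2 TMM CPM ran most like those of the members over the 9 libraries differed between the sequences. Pearson's r is a description here, since the points share libraries and every likeness includes the drop between larvae and postlarvae. For miR-31-x they were miR-29-y (r = 0.967), miR-242-x (r = 0.940) and miR-92-y (r = 0.935), and the same 3 stood first for miR-72-x. miR-29-y averaged 925.3 TMM CPM in PL, against 1641 TMM CPM in CL and 1812 TMM CPM in Pre-CL, a level close to that of miR-31-x. miR-242-x shared only the direction, at 24.8 TMM CPM in PL against 72190.5 TMM CPM in CL and 134740.5 TMM CPM in Pre-CL.

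For miR-375-y the closest were miR-96-x (r = 0.982), miR-279-y (r = 0.959) and a predicted miRNA of low level (r = 0.955), which averaged 6.91 TMM CPM in PL against 18.8 TMM CPM in CL and 17.8 TMM CPM in Pre-CL. miR-96-x averaged 11480 ± 1801 TMM CPM in PL, against 32436 ± 5221 TMM CPM in CL and 27114 ± 10231 TMM CPM in Pre-CL (SD, n = 3 each). In vertebrates miR-96 is made from 1 transcript with miR-182 and miR-183 in sensory hair cells. miR-31-x and miR-375-y themselves had r = 0.765 over the same 9 libraries. The closest 3 were picked as the highest among all other miRNAs tested, so nothing is read from r = 0.765 being lower.

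Since the members are known from epithelia in mammals, other miRNAs known from epithelia were set beside them, together with lists known from other tissues. All lists were chosen with earlier results of these data known, so the counts called in them are a description. Of 12 rows of epithelial miRNAs (miR-8, miR-141, miR-184, miR-192, miR-200 and miR-215 among those tested), 9 were tested. By edgeR 0 of them were called lower in PL against CL or against Pre-CL, beside 14.5% and 22.0% of all miRNAs tested. With 9 rows, 0 is not far from those shares, so nothing is read from it. Several rows had low levels at which a fall is hard to call. Among them, miR-192-x averaged 6.10, miR-200-y 6.42 and miR-215-x 0.591 TMM CPM in CL. At an unadjusted p under 0.05 1 was lower in PL against CL and 0 in PL against Pre-CL, and DESeq2 and limma called 0 lower in either comparison. In both comparisons 2 of the 9 were called higher, beside 22.4% and 28.5% of all miRNAs tested. The 2 were miR-8-x and miR-200-x each time. The median of the list was 0.845 in PL against CL and 0.24 in PL against Pre-CL, beside 0.202 and 0.0554 over all miRNAs tested. miR-8-x, of the miR-200 family, averaged 65.1 TMM CPM in PL, against 25.7 TMM CPM in CL and 30.0 TMM CPM in Pre-CL, with a log2 fold change of 1.34 in PL against CL (edgeR adjusted p = 0.010), a call that was lost without CL 3. In PL against Pre-CL its log2 fold change was 1.12, and the call was lost under 4 of 21 alternatives, Pre-CL 3 or PL 3 left out among them. The far more abundant miR-8-y averaged 17011 TMM CPM in PL, against 9787 TMM CPM in CL and 14402 TMM CPM in Pre-CL. It was called in neither comparison, at log2 fold changes of 0.797 and 0.24. miR-141-y, miR-200-y and miR-200-z were also called in neither. miR-200-x had 14 to 31 counts in the PL libraries and 0 in every larval library. It was at least 6.35-fold higher in PL than in CL if each CL library is set to 3 counts. It passed the count filter only through PL and could only come out higher, so nothing is read from its call. Its fold change also enters the median of the list. Scaled by total counts, 5 of the 9 were called higher and 0 lower in PL against CL, beside 76 of all 214 called higher. In PL against Pre-CL, 2 of the 9 were called higher and 0 lower on that scale, beside 81 of all 214 called higher. The summed level of the epithelial list was 124496 to 154459 TMM CPM in PL, 179350 to 244303 TMM CPM in CL and 108396 to 271912 TMM CPM in Pre-CL. The sum was carried mostly by miR-184-y, with 118314 TMM CPM in PL, 207283 TMM CPM in CL and 163874 TMM CPM in Pre-CL on average. miR-184-y was the row lower at an unadjusted p under 0.05 in PL against CL. Its log2 fold change was -0.809 there (edgeR adjusted p = 0.093) and -0.47 in PL against Pre-CL, called in neither.

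Of the miRNAs most like the members, miR-96-x was in the list of sensory organ miRNAs and miR-29-y and miR-92-y in that of ciliated cells. Of 4 rows of sensory organ miRNAs, 3 were called lower and 1 higher in PL against CL, beside 14.5% and 22.4% of all miRNAs tested. As this list was chosen with earlier results of these data known, nothing is read from its distance to those shares. The likeness of miR-96-x to miR-375-y also includes the drop in PL. In PL against Pre-CL 3 were called lower and 0 higher, beside 22.0% and 28.5% of all miRNAs tested. In that comparison 0 sensory rows were higher at an unadjusted p under 0.05 or by DESeq2 or limma, and limma called 2 lower. Their summed level was 10099 to 13846 TMM CPM in PL, against 111617 to 135220 TMM CPM in CL and 125581 to 181128 TMM CPM in Pre-CL. With the sequence that 2 of these rows share counted once, it was 9861 to 13458 TMM CPM in PL, against 70488 to 85164 TMM CPM in CL and 77072 to 111274 TMM CPM in Pre-CL. The lower ones were miR-183-x and miR-263-x, which share 1 sequence, at log2 fold changes of -7.16 and -6.87 in PL against CL, and miR-96-x at -1.50 (edgeR adjusted p = 0.0023). The higher one was miR-182-x at 2.44, a call that was lost without CL 2, CL 3, PL 2 or PL 3. In PL against CL, miR-96-x was under 2-fold and no longer called with total counts as library size. In PL against Pre-CL its log2 fold change was -1.24, and the call was lost under 6 of 21 alternatives, among them total counts (-0.60), clean reads, limma (-0.97) and leaving out Pre-CL 3 (-0.91). Of 4 tested rows of ciliated cell miRNAs, 1 was called lower in PL against CL, beside 14.5% of all miRNAs tested. This was miR-92-x, at a log2 fold change of -4.53. In PL against Pre-CL 2 were called lower, miR-92-x at -4.91 and miR-34-x at -1.16, beside 22.0% of all miRNAs tested. The miR-34-x call was lost under 10 of 21 alternatives. The summed level of the ciliated cell list was 10648 to 16093 TMM CPM in PL, against 18419 to 24500 TMM CPM in CL and 21418 to 29064 TMM CPM in Pre-CL. miR-29-y and miR-92-y, of the same list, did not pass the 2-fold limit, at log2 fold changes of -0.83 and -0.72 in PL against CL. In PL against Pre-CL they were just short of it, at -0.969 and -0.999. At an unadjusted edgeR p under 0.05, 3 of the 4 rows were lower in PL against CL and 4 in PL against Pre-CL. The sum was carried mostly by miR-92-y, at 17702.5 TMM CPM in CL on average, where miR-92-x had 61.3 TMM CPM.

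Lists of neural and of muscle miRNAs had no member called lower in either PL comparison by edgeR, DESeq2 or limma, and 0 at an unadjusted p under 0.05. Of all miRNAs tested, edgeR called 14.5% lower in PL against CL and 22.0% lower in PL against Pre-CL. With 8 and 5 rows tested, 0 is not far from these shares, so nothing is read from it. Of 8 neural and neuroendocrine rows tested, the list closest to the known setting of miR-375 in mammals, 2 were called higher in PL against CL and 2 in PL against Pre-CL, with medians of 0.78 and 0.68, beside 22.4% and 28.5% of all miRNAs called higher. miR-9-y led in PL against CL at a log2 fold change of 2.59 (edgeR adjusted p = 0.0035), and miR-124-y in PL against Pre-CL at 2.69. The other call in PL against CL, miR-219-x at 1.58, was lost under 8 of 21 alternatives. Scaled by total counts, 6 and 5 of the 8 neural rows were called higher in the 2 comparisons, beside 76 and 81 of all 214 miRNAs. Of 5 muscle rows tested, 2 were called higher in PL against CL and 4 in PL against Pre-CL with TMM, beside 22.4% and 28.5% of all miRNAs. miR-133-y rose most, by a log2 fold change of 2.58 in PL against CL (edgeR adjusted p = 0.00097). The most abundant muscle row, miR-1-y, was called in neither comparison, at -0.143 in PL against CL and 0.148 in PL against Pre-CL. miR-1-z and miR-206-y were not called in PL against CL. The summed level of the neural list was 31064 to 37211 TMM CPM in PL, against 19036 to 26082 TMM CPM in CL and 20515 to 32238 TMM CPM in Pre-CL. That of the muscle list was 98490.0 to 122738 TMM CPM in PL, against 95022 to 121248 TMM CPM in CL and 63962 to 84025 TMM CPM in Pre-CL. The part of such shifts in tissue makeup in the levels of miR-31-x, miR-72-x and miR-375-y was not tested.

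The deposited table of miRNA and target pairs held 30524 pairs of 195 miRNAs. None of them, 0 pairs, was for miR-31-x, miR-72-x or miR-375-y, and targets of the 3 were not analysed here.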

How the data were processed

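Small RNA of 18 to 30 nt was sequenced on an Illumina HiSeq. Per the study's methods, the authors removed tags of other RNA classes, aligned the rest to miRBase with at most 2 mismatches, took the most abundant sequence of each family as its reference and summed the tags matching it. The deposited counts are unnormalized whole numbers of tags per reference, as the authors summed them. Read totals of the cleaning and annotation summaries gave depth and RNA classes. The deposited TPM and the authors' stage means, fold changes, p-values and correlations in the pair table were not used.

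Counts were fitted in edgeR 4.0.16 (R 4.3.3) with TMM scaling, filterByExpr by stage (214 miRNAs passed), all 9 libraries in 1 fit without covariates, quasi-likelihood tests and Benjamini-Hochberg adjustment over all miRNAs that passed. A standard error is |log2 fold change| divided by the root of F. Ratios were compared between CL and Pre-CL by exact permutation tests (scipy 1.17.1, Python 3.11.15, pandas 2.3.3, numpy 2.4.6). Alternatives were DESeq2 1.42.0, limma 3.58.1 (log2 of CPM of clean reads plus 1 or 0.5), other library sizes and filters, a replicate block and each library left out. The edgeR steps were also run on simulated counts, with as many rises as falls and less spread than fitted here. That run cannot show which scaling suits these data. Likeness was Pearson's r of log2 TMM CPM with a prior count of 2. Named miRNAs are the members, rows of their number, seed or near sequence, the 3 most like each member, and up to 3 called miRNAs with the largest fold change per list and comparison. The lists were epithelial, sensory organ, ciliated cell, neural and neuroendocrine, and muscle. miR-184-y, miR-278-y, miR-668-y and miR-4628-y were added after their values were seen. Members and lists were chosen with earlier results of these data known. PCR reads carry no molecular identifiers. The Wilson interval of a share covers counting error only, whereas intervals and standard errors of fold changes also cover the spread between libraries.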

Additional observations from a re-analysis of the deposited data

How the results depend on the processing

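The lower level of miR-31-x, miR-72-x and miR-375-y in PL kept its direction in every fit that was run, 21 alternatives for miR-31-x and miR-375-y and 20 for miR-72-x. The rows were chosen by this fall and all fits draw on the same libraries, so the kept direction is no added support. The fits of miR-72-x also repeat those of miR-31-x, whose sequence it shares. Over all of them the log2 fold change in PL against CL ran between -1.54 and -0.65 for miR-31-x, -1.55 and -0.66 for miR-72-x, and -1.75 and -0.85 for miR-375-y, and in PL against Pre-CL between -1.59 and -0.75, -1.60 and -0.76, and -1.70 and -0.79. Total miRNA counts as library size gave -0.65, -0.66 and -0.85 for the 3 miRNAs in PL against CL and -0.75, -0.76 and -0.79 in PL against Pre-CL. With each shared sequence counted once in those totals, an alternative chosen after seeing the data, the values were -0.71, -0.72 and -0.91, and -0.82, -0.83 and -0.87. For miR-31-x and miR-72-x in PL against CL, clean reads as library size gave -0.94 and -0.95, limma with a pseudocount of 1 or 0.5 gave -0.96 and -0.97, and only miRNAs with a mean over 10 CPM of clean reads gave -1.54 and -1.55. Leaving out miR-72-x as a repeat of miR-31-x, also chosen after seeing the data, left -1.23 for miR-31-x and -1.44 for miR-375-y.

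Between CL and Pre-CL the log2 fold changes of the 3 lay close to 0 and changed sign, with adjusted p of 0.34 to 1 and no call under any alternative. DESeq2 gave 0.01 for miR-31-x and 0.004 for miR-72-x, and no filter on low counts gave 0.03 for both. For miR-375-y, clean reads as library size gave -0.03 and limma -0.01 with either pseudocount. Leaving out 1 library each gave -0.28 to 0.15 for miR-31-x, -0.29 to 0.14 for miR-72-x and -0.16 to 0.30 for miR-375-y.

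Counts of called miRNAs moved more. Total counts gave 76 higher and 17 lower in PL against CL and 31 lower in PL against Pre-CL, and with shared sequences counted once 75, 20 and 31. Only miRNAs with a mean over 10 CPM gave 11 higher and 9 lower in CL against Pre-CL, 19 higher in PL against CL, and 22 higher and 30 lower in PL against Pre-CL, with fewer miRNAs tested. Leaving out 1 library each gave 10 (without CL 2 or CL 3) to 27 (without Pre-CL 3) lower in CL against Pre-CL.

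The libraries were not treated as paired by replicate number, since of 9 same-numbered pairs 3 had a correlation over 0.1 (range -0.279 to 0.289). With 3 libraries per stage these correlations cannot exclude a pairing, and no label names one. With a replicate block, the log2 fold change was -1.22, -1.22 and -1.47 for miR-31-x, miR-72-x and miR-375-y in PL against CL and -1.28, -1.29 and -1.40 in PL against Pre-CL, with 39 miRNAs higher and 29 lower in PL against CL. Where a cause of a change is not given, it was not tested. Counting error of the members was narrow beside the spread between libraries, and each stage had 3 libraries. The summed level of sensory organ miRNAs with the shared sequence counted once was also chosen after seeing the data.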
